A study of Nomascus leucogenys with 9 samples.

Results

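The genes described here encode proteins that rejoin broken DNA ends. They were chosen by their human Ensembl identifiers, which the rows of the expression table carry, by a rule that uses no measured value. Of the 10 identifiers listed, 9 had a row among the 15356 rows read here, and all 9 passed the filter on low rows. The identifier of NHEJ1, ENSG00000187736, had no row, so NHEJ1 (the scaffold protein XLF) is not analysed here. RNA-seq had been carried out on Epstein-Barr virus (EBV)-transformed lymphocyte lines of 9 northern white-cheeked gibbons (Nomascus leucogenys), 1 library for each animal. All lines belong to 1 group with no treatment, no untransformed control and no genetic alteration in the labels, so the comparisons are between lines. They are called by the names in their labels, from Asia to Vok. Animal, culture and transformation coincide in each line and cannot be told apart. Markers of B cells and of other cell types could not be looked up, because the table gives identifiers without gene symbols.

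In classical non-homologous end joining, known mainly from human and mouse work, a ring of the proteins Ku70 and Ku80 slides onto a broken end and recruits a large kinase, which together form DNA-PK. The nuclease Artemis trims ends that cannot be joined directly, and DNA ligase IV, held by its scaffold XRCC4, seals them. 53BP1 and its effector RIF1 protect ends from resection and so favour this route, whereas DNA polymerase theta joins resected ends through short stretches of matching sequence. In lymphocytes the classical route completes V(D)J recombination, and in B cells end joining with 53BP1 is also used in antibody class switching.

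All 9 genes had a level above the filter, and none of them differed by as much as 2-fold between the lowest and the highest line. The full ranges ran from 1.28-fold for XRCC6 to 1.81-fold for PRKDC, with a median of 1.52-fold. Over all 12590 rows kept, 26.4% spanned at least 2-fold, and of the 8676 rows at 10 to 1000 ppm (parts in 1000000 of a line's linear total), the class that holds all 9 genes, 23.0% did. The median range of all rows was 1.60-fold. A range of at least 0.5 log2 units was found in 7 of the 9 genes and in 71.8% of all rows, so by that measure the genes were near the background. The median SD of the 9 genes was 0.23 log2 units and that of all rows was 0.22. XRCC6 had a smaller SD than 92.6% of all rows, and PRKDC had a larger SD than 65.2% of them. The deposited values are on a log scale and were normalized by the authors in a way not given in the sources used here, so all levels and folds are on that scale, and levels are not compared between genes because no transcript lengths were at hand.

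**Figure D1:**
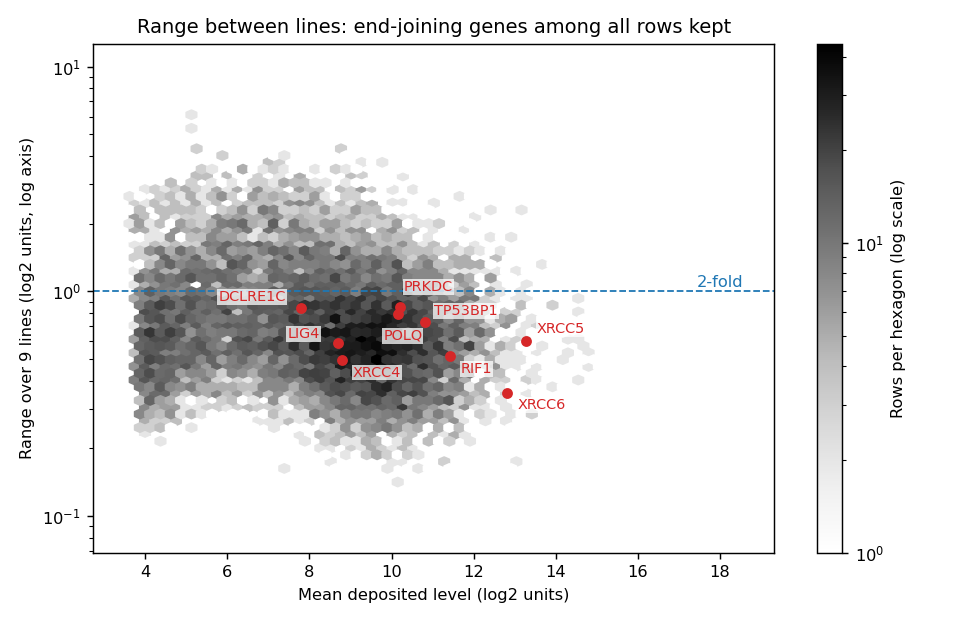
Each red point is 1 end-joining gene, placed by its mean deposited level (log2 units, x axis) and by its range over the 9 lines (log2 units, log y axis), and grey hexagons count all 12590 rows kept. All 9 genes lie below the dashed 2-fold line, with PRKDC closest to it at 0.85 log2 units and XRCC6 farthest from it at 0.35.

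limma's test of whether a row varied more than its peers called 0 of the 9 genes, with adjusted p from 0.976 to 0.999 (unadjusted p from 0.271 to 0.903). It called 0.00% of all rows, 658 of which had an unadjusted p under 0.05, and no other tool was run. The prior of this test had only 2.75 degrees of freedom, so a count of 0 is no evidence of equal spread. Each line had 1 library, so a difference between 2 neighbouring lines has no error of its own.

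Of the genes of DNA-PK, which binds the broken end, all 3 were high in Melouprey and Phyllis and lowest in Khao and Nancy, and XRCC5 was also high in Vok. XRCC5 (ENSG00000079246), which encodes Ku80, stood at 13.25 log2 units in Asia, 13.19 in Bobby, 13.21 in China, 13.01 in Khao, 13.50 in Melouprey, 13.04 in Nancy, 13.50 in Phyllis, 13.13 in Ricky and 13.61 in Vok (mean 13.27 ± 0.22, SD, n = 9). Melouprey, Phyllis and Vok were the 3 highest lines and are called the upper set of XRCC5 below. The set was picked by these same values, and XRCC5 met no gap criterion. Leaving the set out narrows the range of XRCC5, which by itself can lower r. The values of Melouprey and Phyllis were equal within 0.0001. XRCC6 (ENSG00000196419), which encodes Ku70, stood at 12.87 in Asia, 12.76 in Bobby, 12.77 in China, 12.64 in Khao, 13.00 in Melouprey, 12.74 in Nancy, 12.91 in Phyllis, 12.74 in Ricky and 12.82 in Vok (mean 12.80 ± 0.11, SD, n = 9). It was the least variable of the 9 genes, with Khao at the low end and Melouprey at the high end. PRKDC (ENSG00000253729), which encodes the catalytic subunit of DNA-PK, stood at 10.26 in Asia, 10.35 in Bobby, 10.07 in China, 9.97 in Khao, 10.50 in Melouprey, 9.71 in Nancy, 10.56 in Phyllis, 10.08 in Ricky and 10.41 in Vok (mean 10.21 ± 0.28, SD, n = 9). Nancy was lowest, 0.56 log2 units below the median of the lines, and Phyllis was highest.

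**Figure D2:**
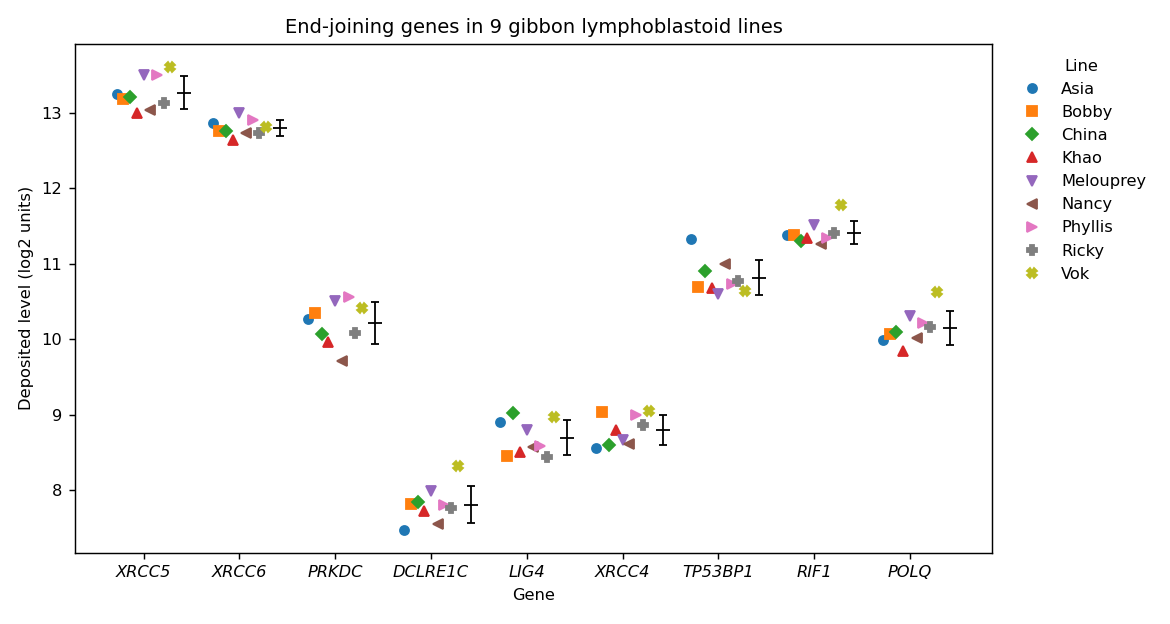
Deposited level (log2 units, y axis) of the 9 end-joining genes (x axis, ordered by role), with 1 coloured symbol for each of the 9 lines and, in black, the mean and SD over the lines. Vok is the highest symbol for 5 genes, while TP53BP1 is highest in Asia at 11.33.

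The processing and ligation genes did not share 1 order of lines. DCLRE1C (ENSG00000152457), which encodes Artemis, stood at 7.47 log2 units in Asia, 7.81 in Bobby, 7.84 in China, 7.72 in Khao, 7.98 in Melouprey, 7.54 in Nancy, 7.80 in Phyllis, 7.77 in Ricky and 8.31 in Vok (mean 7.80 ± 0.24, SD, n = 9). Vok was highest and Asia lowest, 1.79-fold apart, and without Vok the range was 0.51 log2 units in place of 0.84. LIG4 (ENSG00000174405), the ligase, stood at 8.90 in Asia, 8.45 in Bobby, 9.02 in China, 8.51 in Khao, 8.80 in Melouprey, 8.56 in Nancy, 8.59 in Phyllis, 8.43 in Ricky and 8.97 in Vok (mean 8.69 ± 0.23, SD, n = 9). Asia, China and Vok were high, and Bobby, Khao and Ricky were low. XRCC4 (ENSG00000152422), the scaffold of the ligase, stood at 8.55 in Asia, 9.03 in Bobby, 8.59 in China, 8.80 in Khao, 8.66 in Melouprey, 8.61 in Nancy, 8.99 in Phyllis, 8.86 in Ricky and 9.04 in Vok (mean 8.79 ± 0.20, SD, n = 9). Asia and China, which were high for LIG4, had the lowest XRCC4 values, and Bobby, second lowest for LIG4, was second highest for XRCC4. Vok was high for both.

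The pathway choice genes differed in which line stood out. TP53BP1 (ENSG00000067369), which encodes 53BP1, stood at 11.33 log2 units in Asia, 10.69 in Bobby, 10.91 in China, 10.68 in Khao, 10.60 in Melouprey, 11.00 in Nancy, 10.73 in Phyllis, 10.77 in Ricky and 10.64 in Vok (mean 10.82 ± 0.23, SD, n = 9). Asia was highest, and without it the range was 0.40 log2 units in place of 0.73. Asia was also the line that deviated most over the whole table, with an SD of its deviations from the row medians of 0.53 log2 units against 0.22 to 0.42 in the other lines; the part of this in the TP53BP1 value was not tested. RIF1 (ENSG00000080345) stood at 11.38 in Asia, 11.38 in Bobby, 11.31 in China, 11.35 in Khao, 11.51 in Melouprey, 11.27 in Nancy, 11.34 in Phyllis, 11.41 in Ricky and 11.78 in Vok (mean 11.41 ± 0.15, SD, n = 9). Vok lay apart from the other lines, and without it the SD was 0.074 log2 units. A gap of that relative size, by Dixon's criterion for 9 values, was met by 1 of the 9 genes and by 10.1% of all rows.

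POLQ (ENSG00000051341), which encodes DNA polymerase theta of the alternative route, stood at 9.99 log2 units in Asia, 10.07 in Bobby, 10.10 in China, 9.84 in Khao, 10.31 in Melouprey, 10.02 in Nancy, 10.22 in Phyllis, 10.16 in Ricky and 10.63 in Vok (mean 10.15 ± 0.23, SD, n = 9). Vok was highest and Khao lowest, 1.73-fold apart, and without Vok the range was 0.47 log2 units in place of 0.79. Melouprey and Phyllis followed Vok, as they did for XRCC5.

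Read by line, Vok had the highest level of 5 genes (XRCC5, DCLRE1C, XRCC4, RIF1 and POLQ) and lay above the median of the lines in 8 of 9, with TP53BP1 as the exception. Vok was also among the more deviating lines when every row was taken, with a spread (SD) of 0.40 log2 units. Asia (0.53) and Nancy (0.42) spread more, and Bobby and Ricky (0.22 each) least. How often other rows were highest, or above or below the median, in each line was not tested. The counts for Vok and for the lines that follow thus have no background. Melouprey lay above the median in 7 genes, below it in XRCC4 and TP53BP1. Khao lay below the median in 8 genes and was itself the median for XRCC4. Nancy lay below the median in 8 genes and above it in TP53BP1. The median deviation of the 9 genes was 0.38 log2 units in Vok, 0.21 in Melouprey and 0.12 in Phyllis, and -0.11 in Nancy and -0.08 in Khao. Since the libraries are of whole cultures, a difference in the make-up of a culture and a difference in RNA per cell cannot be told apart.

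**Figure D3:**
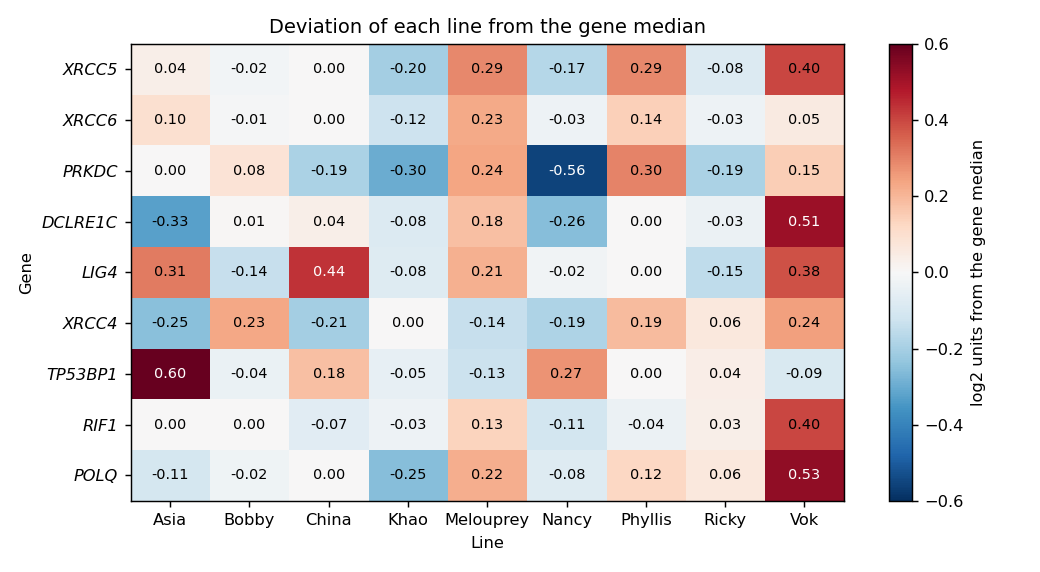
Each cell gives the deviation of 1 line (columns) from the median of the 9 lines for 1 gene (rows), in log2 units, with red above and blue below the median. Vok is red in all genes except TP53BP1, and TP53BP1 in Asia is the largest deviation, 0.60.

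The subunits of DNA-PK had positive correlations across the lines, but none of these pairs passed the threshold of 0.05 after adjustment over all 36 pairs of the 9 genes. XRCC5 and PRKDC had Pearson r = 0.855 (exact permutation p = 0.0033, adjusted p = 0.0515) and Spearman rho = 0.85 (exact permutation p = 0.0061, adjusted p = 0.0729). XRCC5 and XRCC6 had r = 0.796 (exact permutation p = 0.0098, adjusted p = 0.0579) and rho = 0.883 (exact permutation p = 0.0031, adjusted p = 0.0729). XRCC6 and PRKDC had r = 0.766 (exact permutation p = 0.0157, adjusted p = 0.0707) and rho = 0.85 (exact permutation p = 0.0061, adjusted p = 0.0729). All these tests were two-sided over 9 lines. Without the 2 lines farthest from the median of the first gene, r was 0.851, 0.957 and 0.598. In the 6 lines outside the upper set of XRCC5, r was 0.776, 0.866 and 0.506 in the same order.

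When every kept row was regressed on the level of XRCC5 with limma, with adjustment over all 12589 other rows, 3.11% of rows had a positive slope past the threshold. PRKDC (adjusted p = 0.0399) was among them, and XRCC6 (adjusted p = 0.172) was not. In the reverse direction, with PRKDC as the regressor, 0 rows were called by limma (2031 had an unadjusted p under 0.05) and XRCC5 had an adjusted p of 0.173. The PRKDC call was lost when any 1 line other than Asia and Bobby was left out, with adjusted p of up to 0.110 without Vok. High correlations were common in this table: 6.43% of all other rows correlated with XRCC5 at least as strongly as XRCC6 did, and 3.57% at least as strongly as PRKDC did. Seen from PRKDC, 0.929% of rows did as well as XRCC5, and seen from XRCC6, 1.12% did.

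Of the 6 log2 differences between partners, XRCC5 minus XRCC6 and XRCC5 minus PRKDC had the smallest SD over the lines. The SD of XRCC5 minus XRCC6 was 0.15, smaller than that of XRCC5 (0.22) and larger than that of XRCC6 (0.11). The difference ran from 0.31 in Nancy to 0.79 in Vok, so Vok had more XRCC5 relative to XRCC6 than any other line. Without Vok this pair had r = 0.942 (exact permutation, adjusted p = 0.0018), the highest r with 1 line left out. Vok was picked here by its difference, so a rise in r was built in. Leaving out any other 1 line gave r from 0.732 (Khao) to 0.824 (Asia). The exact permutation adjusted p then ran from 0.0398 (Asia) to 0.160 (Melouprey). The difference XRCC5 minus PRKDC also had an SD of 0.15, with Bobby lowest at 2.85 and Nancy highest at 3.33, and XRCC6 minus PRKDC had an SD of 0.21. PRKDC minus DCLRE1C, the kinase and the nuclease that it activates, had an SD of 0.26 and r = 0.529 (exact permutation p = 0.141, adjusted p = 0.335).

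The ligase and its scaffold showed no positive correlation. LIG4 and XRCC4, which form a stable protein complex, had r = -0.373 (exact permutation p = 0.307, adjusted p = 0.409) and rho = -0.333 (exact permutation p = 0.385, adjusted p = 0.495) over 9 lines. The difference LIG4 minus XRCC4 ran from -0.58 in Bobby to 0.43 in China, a 2.01-fold change in their ratio, with an SD of 0.35 that was larger than the SD of LIG4 (0.23) or of XRCC4 (0.20). Without China and Vok, the farthest from the LIG4 median, r was -0.721. Without Vok alone it was -0.746 (exact permutation, adjusted p = 0.210), the most negative value with 1 line left out. Leaving out any other 1 line gave r from -0.483 (Nancy) to -0.215 (China). A p above the threshold with 9 lines does not show that the genes vary independently. TP53BP1 and RIF1, which act in 1 recruitment step, had r = -0.429 (exact permutation p = 0.198, adjusted p = 0.366) and rho = -0.567 (exact permutation p = 0.121, adjusted p = 0.307). The difference TP53BP1 minus RIF1 ran from -1.14 in Vok to -0.05 in Asia, with an SD of 0.33. Leaving out Asia and Nancy, r was -0.585. With 1 line left out, r of TP53BP1 and RIF1 ran from -0.647 (Asia) to -0.361 (Nancy). In the 6 lines outside the upper set of XRCC5 it was -0.137.

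**Figure D4:**
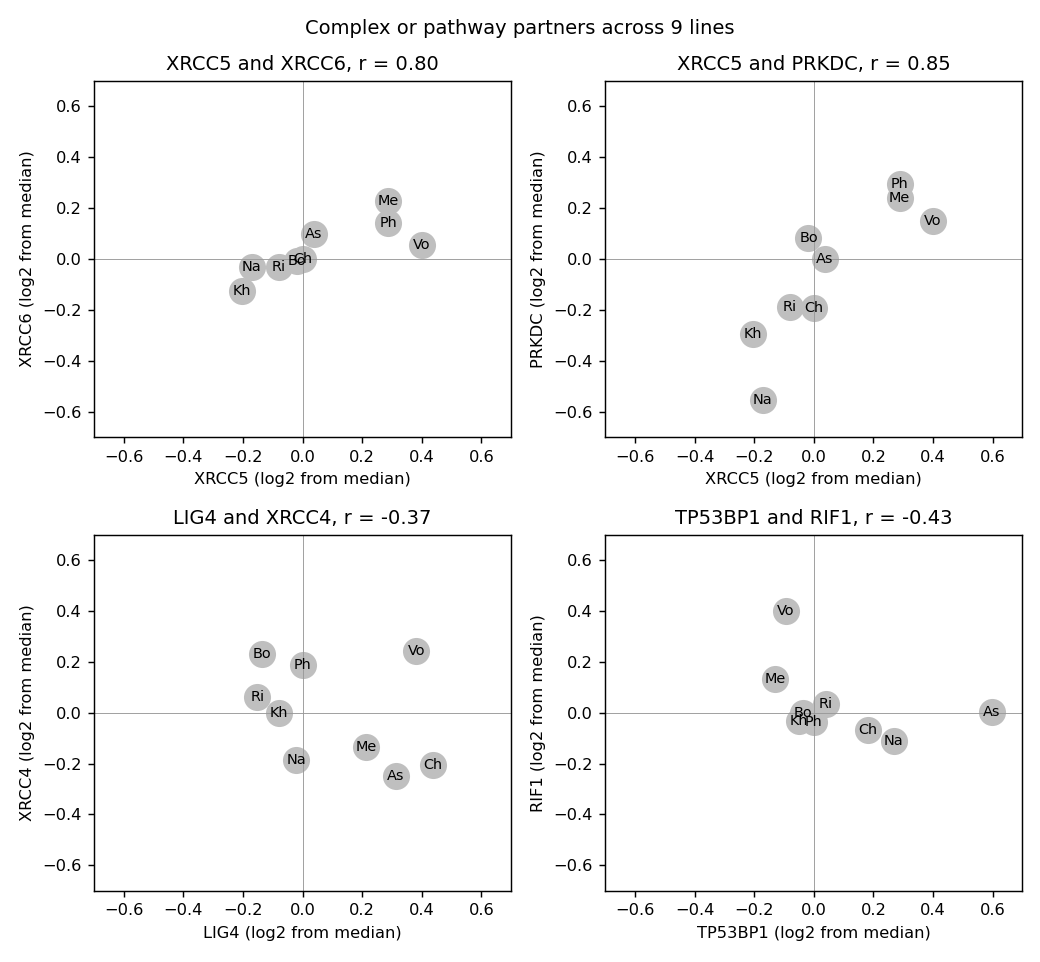
Each panel sets the deviation of 1 gene from its median (log2 units, x axis) against that of its partner (log2 units, y axis), and each point is 1 of the 9 lines, marked by its first letters. XRCC5 lies along a rising band with XRCC6 and with PRKDC, with Vok to the right of the XRCC6 band, while LIG4 against XRCC4 has Asia and China at the lower right and Bobby at the upper left.

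Of the 36 pairs, 27 had a positive r and 9 a negative r, with a median of 0.449. The pairs share genes and lines, so they are not independent. Signs were not counted over other rows, so the counts of signs here have no background. TP53BP1 was in 7 of the 9 negative pairs and was negative with 7 of the 8 other genes. Some of these signs depended on a few lines. In the 6 lines outside the upper set of XRCC5, r of TP53BP1 was 0.477 with XRCC5, 0.818 with XRCC6 and 0.041 with PRKDC. It stayed negative there with DCLRE1C, XRCC4, RIF1 and POLQ (-0.007 with POLQ). The r of TP53BP1 with XRCC6 was -0.041 over all 9 lines and 0.285 without Melouprey. At an unadjusted exact permutation p under 0.05 there were 11 of the 36 pairs by r. Such p-values were common in this table by another test, limma regression of 12589 rows on 1 gene. The rows with an unadjusted p under 0.05 ran from 1172 with XRCC6 as the regressor to 3026 with POLQ. After adjustment over the 36 pairs 1 remained, XRCC5 with POLQ (r = 0.870, exact permutation p = 0.00074, adjusted p = 0.0266; rho = 0.767, exact permutation p = 0.0214, adjusted p = 0.154). By rho, 0 pairs did. Without Phyllis and Vok the r of XRCC5 and POLQ was 0.807, and in the 6 lines outside the upper set of XRCC5 it was 0.521. Leaving out Asia or Ricky kept its exact permutation adjusted p under the threshold (0.0143 and 0.0304), and leaving out any other line did not (0.0549 to 0.111, the highest without Vok). The limma regression over all rows also called this pair, with POLQ on XRCC5 at an adjusted p of 0.0413 (background 3.11%) and XRCC5 on POLQ at 0.0407 (background 3.88%). Both calls were lost without Vok, at adjusted p of 0.219 and 0.257, and both were also lost without any 1 line other than Asia and Phyllis. The call of XRCC5 on POLQ was lost without Phyllis too.

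DCLRE1C, RIF1 and POLQ had high correlations with each other that rested largely on Vok. DCLRE1C and POLQ had r = 0.869 (exact permutation p = 0.0048, adjusted p = 0.0515), DCLRE1C and RIF1 had r = 0.853 (exact permutation p = 0.0071, adjusted p = 0.0515), and RIF1 and POLQ had r = 0.868 (exact permutation p = 0.0072, adjusted p = 0.0515). Without Vok the r values were 0.652, 0.554 and 0.572. The rho values over all 9 lines were 0.817, 0.45 and 0.533 (exact permutation p = 0.0108, 0.230 and 0.148; adjusted p = 0.0969, 0.360 and 0.307). In the regression on POLQ, limma called DCLRE1C (adjusted p = 0.0496), but the call was lost under both rescalings of the lines (0.0534 and 0.0514) and without any 1 line other than Khao, with adjusted p of up to 0.486 without Vok. RIF1 had an adjusted p of 0.0643. The most negative r was that of DCLRE1C and TP53BP1 (r = -0.732, exact permutation p = 0.0356, adjusted p = 0.119).

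Several of the genes correlated with the level of S-phase genes across the lines. The S-phase level of a line is the mean deviation, from the row medians, of 176 rows that a human cell cycle classifier ties to S phase. None of the 9 genes is in that list. It was 0.15 log2 units in Melouprey, 0.13 in Vok and 0.12 in Phyllis, the upper lines of XRCC5, and between -0.13 and 0.02 in the other lines. The r with the S-phase level was positive for 8 genes and negative for TP53BP1. The share of all rows with a positive r was not counted. XRCC5 had r = 0.923 (exact permutation p = 0.0015, adjusted p = 0.0089 over 18 relations; rho = 0.833, exact permutation p = 0.0083, adjusted p = 0.0248). POLQ had r = 0.846 (exact permutation p = 0.00067, adjusted p = 0.0089; rho = 0.90, exact permutation p = 0.0020, adjusted p = 0.0203). PRKDC had r = 0.841 (exact permutation p = 0.0053, adjusted p = 0.0192; rho = 0.867, exact permutation p = 0.0045, adjusted p = 0.0203). All 3 genes were high in Melouprey, Phyllis and Vok, the lines with the highest S-phase levels. The XRCC5 and POLQ calls held with any 1 line left out, and the PRKDC call was lost without Vok (exact permutation, adjusted p = 0.0613). Without Melouprey and Vok, whose S-phase levels were farthest from the median, these r values were 0.870, 0.869 and 0.797. In the 6 lines without Melouprey, Phyllis and Vok, which span a narrower range of S-phase levels, they were 0.630, 0.817 and 0.594.

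DCLRE1C (r = 0.767) and XRCC6 (r = 0.755) passed the threshold over the 18 relations too, with exact permutation adjusted p of 0.0263 and 0.0417. The XRCC6 call was lost when any 1 line other than Asia was left out (exact permutation, adjusted p from 0.0641 to 0.147), and the DCLRE1C call was lost without Nancy (0.0801) or Vok (0.0779). RIF1 had r = 0.626 (exact permutation, adjusted p = 0.0937), XRCC4 had r = 0.481 (exact permutation, adjusted p = 0.217), LIG4 had r = 0.281 (exact permutation, adjusted p = 0.448), and TP53BP1 had r = -0.581 (exact permutation, adjusted p = 0.137).

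Set against the whole table, fewer of the relations to S phase were called. In a limma regression of 12414 rows on the S-phase level, 2.56% of rows had a positive slope past the threshold. Unadjusted p was under 0.05 in 2789 of these rows. Of the 9 genes, XRCC5 (adjusted p = 0.0268) and PRKDC (adjusted p = 0.04996) were called. The PRKDC call was lost without any 1 line other than Asia (up to 0.137 without Melouprey) and under both rescalings of the lines and the pseudocount (0.0502 to 0.0817). The XRCC5 call was lost without any 1 line other than Asia, Bobby and China (up to 0.0838 without Melouprey). POLQ had an adjusted p of 0.0565. DCLRE1C and XRCC6, the other two relations past the threshold over the 18, had adjusted p of 0.118 and 0.22 in this regression. A correlation with the S-phase level at least as high was found in 0.894% of rows for XRCC5, 3.48% for POLQ, 3.72% for PRKDC, 6.89% for DCLRE1C and 7.37% for XRCC6. With the level of 169 G2M rows, POLQ had r = 0.884 and XRCC5 r = 0.872 (exact permutation, adjusted p = 0.0089 and 0.0106 over the 18 relations), and both were above the threshold without Vok (exact permutation, adjusted p = 0.075 for each). DCLRE1C had r = 0.792 (exact permutation, adjusted p = 0.0263), and its call was lost without Nancy (0.0633) and without Vok, where r was 0.561 (exact permutation, adjusted p = 0.239). A correlation with the G2M level at least as high was found in 1.33% of rows for POLQ, 1.68% for XRCC5 and 4.28% for DCLRE1C. The S-phase and G2M levels were both high in Vok (0.13 and 0.17 log2 units) and Phyllis (0.12 and 0.10). Both were lowest in Khao (-0.13 and -0.09), so the calls on these levels are not independent of each other. The limma regression on the G2M level called 0.700% of rows with a positive slope and none of the 9 genes. Of its 12421 rows, 2330 had an unadjusted p under 0.05. The part of cell cycle differences between the cultures in the correlations among the end-joining genes was not tested.

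**Figure D5:**
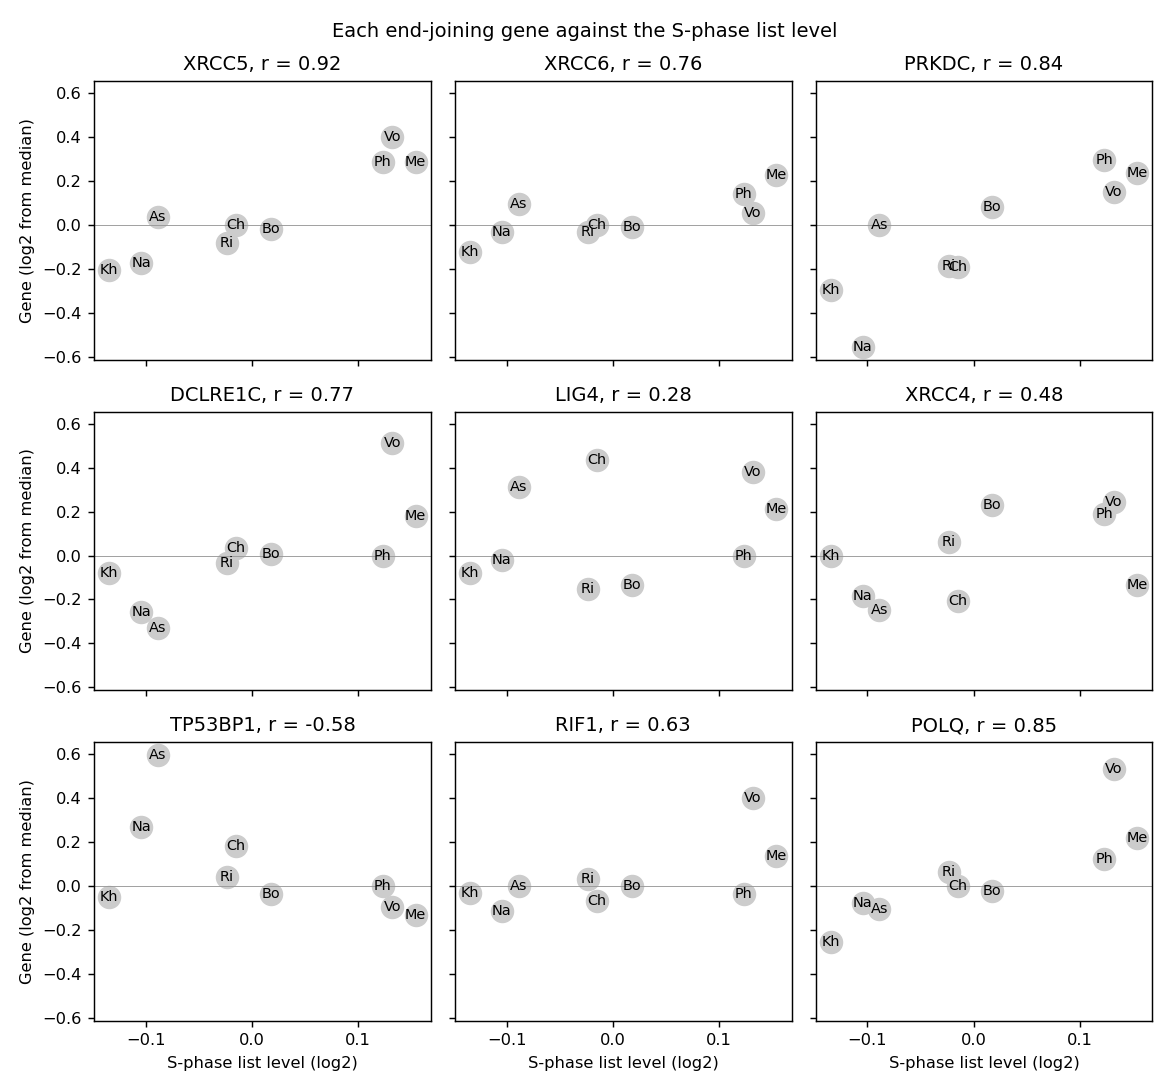
Each panel sets the S-phase list level of a line (mean log2 deviation of 176 rows, x axis) against the deviation of 1 gene from its median (log2 units, y axis), and labels give the first letters of each line. Melouprey, Phyllis and Vok lie at the right in all panels, and XRCC5 (r = 0.92), POLQ (r = 0.85) and PRKDC (r = 0.84) are highest there, while TP53BP1 is highest at the left in Asia.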

How the data were processed

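The table holds log-scale normalized gene counts, treated here as log2 values. The linear totals of the deposited log2 columns lay close together, between 1.37e+07 and 1.41e+07. Trimmomatic, STAR, edgeR and DESeq2 are listed, without version or role, per the submitters' processing notes. The sources used here do not give the normalization, log base, genome build or annotation, and the depth of each library is unknown, so no counting interval could be given. Columns were matched to lines by name.

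The identifiers were paired with symbols by the list that defined the genes. The RefSeq gene table at hand (Asia_NLE_v1) matched 0 identifiers, so further end-joining genes, promoter motifs and cell type markers, listed by symbol, could not be looked up, and no sequences were at hand. The rule for the genes uses no measured value, but the genes, lists and tests were chosen with earlier results of these data known, and the p-values, those by exact permutation included, carry that limit. The rule for named genes was to name every listed gene, and to name the closest rows by correlation for genes spanning at least 2-fold, of which there were 0.

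Rows were kept from a mean of 1 ppm of the linear total upwards. Row variances were compared by limma 3.58.1 under R 4.3.3 (robust prior that follows the mean level), and rows were regressed on the level of each gene or list with limma (trend and robust), an alternative added after seeing the data. Both used Benjamini-Hochberg adjustment over all rows and a threshold of 0.05, and both were tested on simulated rows that, unlike the deposited ones, share 1 variance. Correlations were tested with exact two-sided permutation over all 362880 orders of the 9 lines, with Benjamini-Hochberg adjustment over the 36 pairs or the 18 gene-by-list relations (scipy 1.17.1, numpy 2.4.6). Of 8 partner pairs planned, 6 were measured. The cell cycle lists came from the pair classifier of scran 1.30.0, as rows that are the higher member in at least 90% of at least 20 pairs of a phase. Alternatives were rescaling of the lines, a pseudocount of 1, other filters and leaving out each line. The labels give no batch.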

Additional observations from a re-analysis of the deposited data

Results flagged for a closer look

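RIF1 in Vok was set apart because its level, 11.78 log2 units, lay far above the next line, Melouprey at 11.51, relative to the whole range. Of 17 sets of 9 values that were checked in this way (9 genes, 6 partner differences and 2 cell cycle lists), 1 gave an outlying line. Chance flags about 1 in 20 such sets, these sets overlap, and the same criterion was met by 10.1% of all rows kept.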

How the results depend on the processing

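The count of genes spanning at least 2-fold and the count past limma's variance test were 0 in each of the settings run (rescaled lines, pseudocount, filters, prior, a line left out); the variance test had too little power for its count to speak of stability. Of the 6 partner pairs, 0 passed the threshold over the 36 pairs as deposited, 1 (XRCC5 with PRKDC, adjusted p = 0.0372) with trimmed mean scaling, 1 by the limma regression over all rows, and 0 to 2 when a line was left out. The 2 passed without Asia and without Vok, and were XRCC5 with XRCC6 and XRCC5 with PRKDC (exact permutation). Of the 18 relations to S-phase and G2M levels, 8 passed as deposited and 2 by the limma regression over all rows. When a line was left out 2 to 8 passed, with the lowest count without Vok. The permutation test was not run on other rows, so the count of 8 has no background by that test. The number of genes with an outlying line was 1 as deposited and 0 to 2 when a line was left out: it was 2 without Melouprey (DCLRE1C and RIF1) or Nancy (TP53BP1 and RIF1) and 0 without any of the others; the criterion for 8 lines is stricter. No correlation of a partner pair or with a list changed sign under rescaling, the pseudocount or with 1 line left out. Correlations were not computed again under the other filters. With 2 or 3 lines left out, no partner pair changed sign, but 4 relations to the lists, none of them past the threshold, did: r of LIG4 with S phase was -0.073 without Melouprey and Vok, r of XRCC4 with G2M was -0.287 without Phyllis and Vok and -0.239 in the 6 lines outside the upper set of XRCC5, and in those 6 lines r with G2M was -0.167 for RIF1 and 0.096 for TP53BP1. The SD of the partner differences lay between 0.088 (XRCC5 and XRCC6, without Vok) and 0.38 (LIG4 and XRCC4). No rescaling moved the median of a line by more than 0.042 log2 units. Counting error could not be separated from the spread, as depth is unknown. No paired analysis was possible because all lines form 1 group.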
